A study of Homo sapiens with 8 samples.

Results

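The genes around IRF2 on human chromosome band 4q35 were examined for how far repression by dCas9-KRAB reached when the IRF2 promoter was targeted. They were all genes of a fixed window of chromosome 4 (hg38), from TENM3 with its start at position 182143987 to ZFP42 at 187995771, with IRF2 itself left out, which gave 76 of the 35805 genes listed. Position alone chose the genes within the window, and no measured value entered that rule. The members were still chosen with earlier results of these data known. By GENCODE release 29, which matched all 76, 35 were protein coding, 25 were lincRNAs and 10 were antisense RNAs. The others were 3 sense intronic RNAs, 2 transcripts of the provisional class TEC and 1 long noncoding RNA of a bidirectional promoter. Distances run from gene start to the IRF2 start at position 184474580. IRF2 lies on the minus strand, so negative distances (lower coordinates) are on the side of its gene body.

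The 4 groups compared were all made from K562, an erythroid-like line from a patient with chronic myeloid leukaemia, and all carried dCas9-KRAB. The first 2 groups held a guide to IRF2, sg1-IRF2 or sg2-IRF2, the next held sgAAVS1, a control guide to the AAVS1 safe harbour site inside PPP1R12C, and the last was untransduced. Total RNA was taken 7 days after transduction in the groups with a guide, each group had 2 libraries, and where on IRF2 the guides bind is not given in the sources used here. Each library held between 5248359 and 6738348 reads over the listed genes, and all 11 erythroid marker genes checked were above the expression filter. So were 6 of 9 markers of adherent lines (EPCAM, KRT8, KRT18, COL1A1, COL1A2 and VIM) and 1 of 5 lymphoid markers. Against untransduced cells, PPP1R12C fell with sgAAVS1 by 0.67 ± 0.063 (SE) on the log2 scale (limma, adjusted p = 7.5e-08). A first principal component holding 31.0% of the variance put both sgAAVS1 and both sg1-IRF2 libraries on one side and both untransduced and both sg2-IRF2 libraries on the other, and the part of that split in the comparisons below was not tested.

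In CRISPR interference, a guide RNA brings a catalytically dead Cas9 to a promoter, and its KRAB domain recruits KAP1 (TRIM28) with histone methyltransferases that lay down the repressive mark H3K9me3. HP1 proteins bind that mark and can carry it along the chromatin fibre. Promoters that fire in both directions give an RNA on each strand from one nucleosome-depleted region. IRF2 encodes a DNA-binding regulator of interferon-responsive genes and is known as a counterpart of IRF1.

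IRF2 had 4 and 8 reads with sg1-IRF2, 22 and 21 with sg2-IRF2, 196 and 291 with sgAAVS1, and 271 and 268 in untransduced cells. All 4 libraries with an IRF2 guide were below all 4 controls. For both guides against sgAAVS1 the log2 difference was -4.51 ± 0.18 (SE, 2 libraries per guide against 2), with adjusted p = 2.55e-16 in limma. Bulk RNA cannot tell a lower level in every cell from a mixture of cells with and without the transcript.

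The neighbours nearest to the targeted promoter were too weakly expressed for the filter (mean deposited log2 value of at least 0), and none of the 4 members within 100 kb passed it. For these, reads were compared directly, with ratios corrected for library size and exact 95% intervals that cover counting error only. They were also fitted in limma voom over the 17152 genes with at least 10 reads in the 8 libraries together, a fit added after seeing the data. In that fit 2 of 35 members were called lower for both IRF2 guides against sgAAVS1 (adjusted p under 0.05) and none higher, where 1.57% of all genes were called. Both start within 2 kb of the IRF2 start. Most of their reads came from the 4 control libraries, 61 for RP11-326I11.3 and 17 for RP11-326I11.5, beside 4 and 2 with the IRF2 guides. They passed the 10-read filter only through the groups where they are high, so these calls are not independent of that filter.

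RP11-326I11.3 (AC099343.3 in GENCODE, hg38 chr4:184474802-184477304, plus strand) is the RNA of the bidirectional promoter. It starts 0.222 kb from the IRF2 start and runs away from IRF2, and no exon of IRF2 overlaps its exons. It had 0 and 4 reads with sg1-IRF2, 0 and 0 with sg2-IRF2, 12 and 22 with sgAAVS1, and 15 and 12 in untransduced cells. The libraries with an IRF2 guide did not overlap the controls, and sg2-IRF2 gave no read in either library.

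Summed over both guides, RP11-326I11.3 had 4 reads against 34 with sgAAVS1, a 17.8-fold lower level (95% interval 6.33 to 68.9). Against the 27 reads of untransduced cells it was 13.1-fold lower (4.57 to 51.6). IRF2 itself was 18.5-fold lower than with sgAAVS1 by the same measure (13.98 to 24.9), a value inside the interval of the divergent RNA. With sg1-IRF2 alone RP11-326I11.3 was 8.40-fold lower than with sgAAVS1 (2.997 to 32.6). IRF2 was 40.1-fold lower with that guide (22.8 to 78.2), a value above the interval of the divergent RNA, but the intervals overlap. All 4 reads of the divergent RNA came from sg1-IRF2 library 2, so which RNA fell more with sg1-IRF2 cannot be told. With sg2-IRF2 alone RP11-326I11.3 had no read, so its ratio has no point value. With a floor of 3 reads in place of 0, it was 12.5-fold lower than with sgAAVS1 and 9.22-fold lower than in untransduced cells. These values leave out the counting error of the control reads and are not lower limits of an interval. IRF2 was 12.46-fold lower with that guide than with sgAAVS1 (9.12 to 17.4). Which RNA fell more with sg2-IRF2 cannot be told from these values.

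In the voom fit the log2 difference of RP11-326I11.3 was -4.36 ± 0.63 (SE) for both guides against sgAAVS1 (limma, adjusted p = 3.03e-05). Set against untransduced cells, it was -3.94 ± 0.65 (adjusted p = 0.000188). Both calls held in each fit that left out 1 library. Each such fit kept the genes selected on the reads of all libraries, so it does not test that selection. The calls of RP11-326I11.3 by guide, here and below, are likewise not independent of that selection. For sg2-IRF2 alone the difference from sgAAVS1 was -5.25 ± 0.92 (adjusted p = 0.000403). For sg1-IRF2 alone it was -3.46 ± 0.80 (adjusted p = 0.0245), a call lost without sg1-IRF2 library 1 (adjusted p = 0.484), without its library 2 (0.0519), without sgAAVS1 library 2 (0.0556) and without untransduced library 1 or 2 (0.0648 and 0.0655). The difference between the guides did not pass (1.79 ± 1.16, sg1-IRF2 minus sg2-IRF2, adjusted p = 0.315). For IRF2 itself the log2 difference between the guides was -1.66 ± 0.465 (limma voom, adjusted p = 0.0197), sg1-IRF2 being the lower. By limma on the deposited log2 values it was -1.77.

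Against untransduced cells, RP11-326I11.3 was also called lower for each guide, with a difference of -3.05 ± 0.81 for sg1-IRF2 (voom, adjusted p = 0.0163) and -4.84 ± 0.92 for sg2-IRF2 (adjusted p = 0.00269). The sg1-IRF2 call was lost without its own library 1 (adjusted p = 0.218) or untransduced library 1 (0.101). The sg2-IRF2 call was lost without its library 1 (adjusted p = 0.172) or 2 (0.135). Between sgAAVS1 and untransduced cells RP11-326I11.3 differed by 0.42 ± 0.38 (adjusted p = 0.633), which did not pass.

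RP11-326I11.5 (AC099343.2, chr4:184471924-184472609, minus strand) is a sense intronic RNA inside IRF2, with its start 1.97 kb into the gene. It had 0 and 0 reads with sg1-IRF2, 2 and 0 with sg2-IRF2, 4 and 7 with sgAAVS1, and 4 and 2 in untransduced cells. The guide libraries lay below sgAAVS1 without overlap, while sg2-IRF2 library 1 equalled untransduced library 2. Its level over both guides was 11.49-fold lower than with sgAAVS1 (2.51 to 107) and 5.83-fold lower than in untransduced cells (1.04 to 59.1). The voom difference from sgAAVS1 was -3.04 ± 0.72 (limma, adjusted p = 0.0176), and it did not stay called without sg1-IRF2 library 1 (0.0886) or 2 (0.0736), sg2-IRF2 library 2 (0.122) or sgAAVS1 library 2 (0.0987). From untransduced cells it differed by -2.12 ± 0.79 (adjusted p = 0.189). Since it shares its strand with IRF2, its reads cannot be told apart from unspliced IRF2 RNA.

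RP11-326I11.4 (LINC02427, chr4:184506460-184537554, minus strand), whose start lies 63.0 kb from that of IRF2, is the next RNA with reads on the far side. It had 3 and 9 reads with sg1-IRF2, 4 and 6 with sg2-IRF2, 1 and 9 with sgAAVS1, and 3 and 3 in untransduced cells, and the libraries of both guides overlapped sgAAVS1. The ratio with sgAAVS1 on top and both guides below it was 0.9496 (95% interval 0.401 to 2.09), and the voom difference was 0.37 ± 0.64 (adjusted p = 0.913). The interval of that difference, -0.92 to 1.67, does not reach the fitted value of either of the 2 nearer RNAs. The 4th member within 100 kb, RP11-290F5.1, had 2 reads in all.

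**Figure D1:**
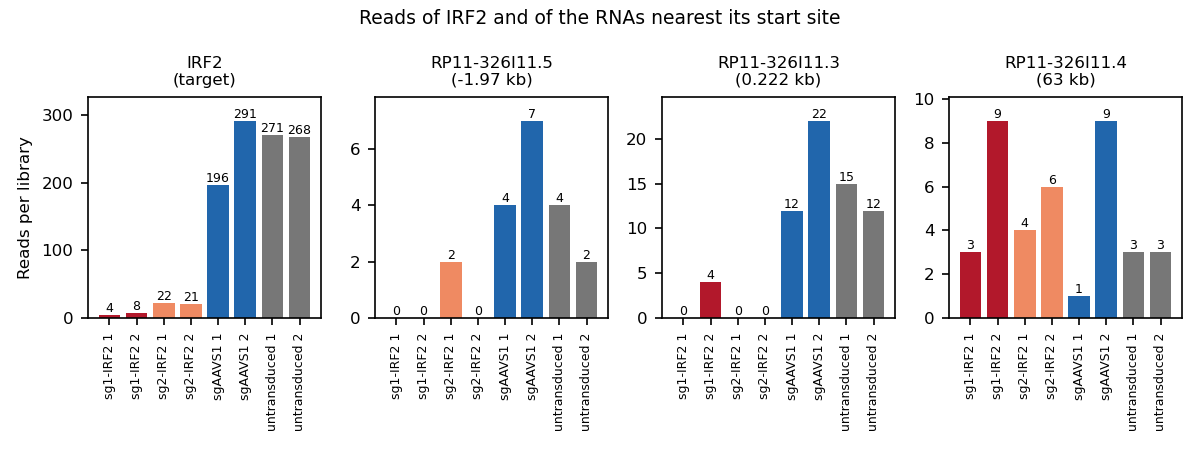
Reads per library (vertical axes, each from 0 on its own scale) of IRF2 and of the 3 RNAs with the nearest starts, 1 bar per library, with the read number above it and the distance from the IRF2 start in brackets. RP11-326I11.3 and RP11-326I11.5 held 0 to 4 reads in libraries with an IRF2 guide, and RP11-326I11.4 held 1 to 9 reads with no split by guide.

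Between 100 and 500 kb lay 11 members, of which 5 passed the filter, all of them on the side away from the gene body. The other 6 gave almost no reads, with 3 in all for ENPP6, a choline phosphodiesterase of oligodendrocytes, 1 for RP11-290F5.2 and 0 for RP11-242J7.1, RP11-739P1.2, RP11-701P16.2 and LINC01093. The nearest members above the filter were therefore RWDD4 and TRAPPC11, 815 kb away, on the gene-body side, while on the other side they began at 175 kb, where PRIMPOL starts.

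None of the 23 members that passed the filter was called for both IRF2 guides against sgAAVS1 in limma on the deposited log2 values, where 1.59% of all 14665 genes tested were called. At an unadjusted p under 0.05 there were 4 of 23 members, or 17.4%, beside 10.6% of all genes. By the voom fit no member that passed the filter was called. The median difference was -0.01 over the members, -0.02 over 444 other genes of chromosome 4 and -0.02 over all genes, with 12 members below 0 and 11 above. The 95% interval included 0 for 19 members, lay above it for 3 and below it for 1. In 16 members that interval was narrower than 0.5 on the log2 scale, and the lowest bound among those was -0.48.

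PRIMPOL, the primase-polymerase that restarts stalled replication forks, had log2 values of 5.32 and 5.50 with sg1-IRF2, 5.15 and 5.18 with sg2-IRF2, 5.22 and 5.39 with sgAAVS1, and 5.02 and 5.20 in untransduced cells. Its difference for both guides against sgAAVS1 was -0.02 ± 0.08 (-0.19 to 0.15). The sg1-IRF2 libraries overlapped sgAAVS1, while those of sg2-IRF2 lay below both groups. The last exons of PRIMPOL and CENPU overlap on opposite strands, and the strand setting of the counting is not given.

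CENPU, a kinetochore protein at 260 kb, had log2 values of 6.75 and 6.75 with sg1-IRF2, 6.57 and 6.60 with sg2-IRF2, 6.74 and 6.65 with sgAAVS1, and 6.69 and 6.68 in untransduced cells. The guides lay on either side of the controls, and their mean differed from sgAAVS1 by -0.03 ± 0.05 (-0.13 to 0.07). ACSL1, which activates long-chain fatty acids at 352 kb from IRF2, had 6.98 and 7.07 with sg1-IRF2, 6.81 and 6.85 with sg2-IRF2, 6.91 and 6.97 with sgAAVS1, and 6.86 and 6.98 in untransduced cells. Again sg1-IRF2 was the highest and sg2-IRF2 the lowest group, and the difference for both guides was -0.01 ± 0.05 (-0.11 to 0.09). RP11-701P16.5 (MIR3945HG), the host transcript of a microRNA at 381 kb, had 3.35 and 3.25 with sg1-IRF2, 2.80 and 2.77 with sg2-IRF2, 2.96 and 3.28 with sgAAVS1, and 3.33 and 3.49 in untransduced cells. It differed by -0.07 ± 0.16 from sgAAVS1, and its interval of -0.40 to 0.26 was wider than those of PRIMPOL, CENPU and ACSL1. Against untransduced cells RP11-701P16.5 differed by -0.37 ± 0.16 with both guides (-0.70 to -0.04, limma, adjusted p = 0.28). With sg2-IRF2 that difference was -0.63 ± 0.19 (adjusted p = 0.114), with sg1-IRF2 -0.11 ± 0.19 and with sgAAVS1 -0.30 ± 0.19. None of these was called.

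Read together, the 5 genes had a median difference of -0.03 from sgAAVS1 (range -0.07 to -0.01) and of 0.01 from untransduced cells (range -0.37 to 0.18). Against sgAAVS1 they had a median of 0.09 with sg1-IRF2, where all genes had 0.04, and of -0.11 with sg2-IRF2, where all genes had -0.07. Each median had the sign of the median of all genes in that comparison. The 5 genes ranged from 0.01 to 0.18 with sg1-IRF2 and from -0.33 to -0.10 with sg2-IRF2. All 5 were thus below the median of all genes with sg2-IRF2, and none was called. Against untransduced cells the range was -0.11 to 0.30 with sg1-IRF2 and -0.63 to 0.06 with sg2-IRF2.

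**Figure D2:**
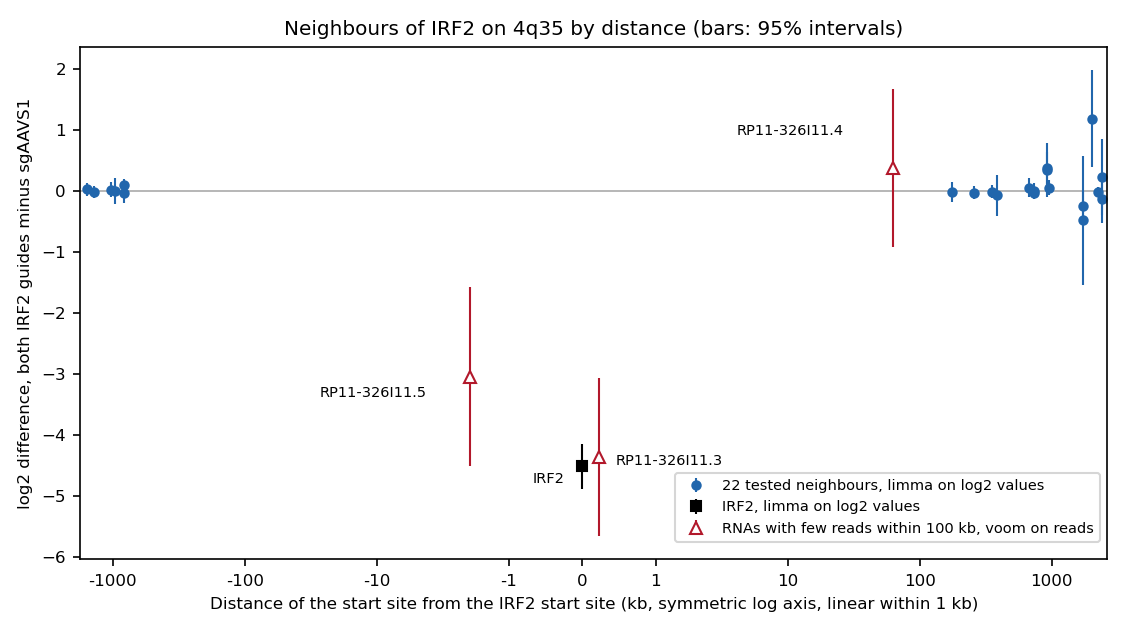
Log2 difference of both IRF2 guides minus sgAAVS1 (vertical axis) against the distance of each gene start from that of IRF2 in kb (horizontal, symmetric log scale, linear within 1 kb), with bars for 95% intervals. Filled circles are 22 tested members, the square is IRF2 and open triangles are the RNAs within 100 kb fitted on reads. IRF2 (-4.51), RP11-326I11.3 (-4.36) and RP11-326I11.5 (-3.04) lie far below 0, and the circles from 175 kb outwards lie around it.

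Of the 20 members between 500 kb and 1 Mb, 9 passed the filter, with a median difference of 0.05 (range -0.04 to 0.38). On the gene-body side, ING2, a reader of methylated histone H3 in Sin3-HDAC complexes, differed by 0.01 ± 0.10 from sgAAVS1, and RWDD4 by -0.03 ± 0.08. TRAPPC11, a subunit of the TRAPP membrane trafficking complexes, had 7.35 and 7.38 with sg1-IRF2, 7.29 and 7.37 with sg2-IRF2, 7.27 and 7.24 with sgAAVS1, and 7.29 and 7.36 in untransduced cells. Its difference of 0.10 ± 0.04 had an unadjusted p of 0.037 and an adjusted p of 0.422, and all 4 guide libraries were above both sgAAVS1 libraries but not above the untransduced ones.

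On the other side, SLC25A4, the mitochondrial ADP/ATP carrier, differed by 0.05 ± 0.08, the sorting nexin SNX25 by 0.0041 ± 0.062, and the ciliary protein gene CFAP97 by -0.04 ± 0.04. UFSP2, the protease that matures UFM1, differed by 0.06 ± 0.06. LRP2BP, which binds the endocytic receptor megalin, differed by 0.34 ± 0.22 (95% interval -0.11 to 0.79, adjusted p = 0.633). None of these 5 passed the test. ANKRD37, a small ankyrin repeat protein known to rise in hypoxia, had 4.13 and 3.92 with sg1-IRF2, 4.10 and 4.03 with sg2-IRF2, 3.55 and 3.78 with sgAAVS1, and 3.87 and 4.28 in untransduced cells. The sgAAVS1 libraries were the lowest here, and the untransduced values enclosed all 4 guide libraries. Its difference of 0.38 ± 0.13 from sgAAVS1 had an unadjusted p of 0.0078 and an adjusted p of 0.204, and from untransduced cells it was -0.03 ± 0.13. ANKRD37 exons overlap those of UFSP2 on the opposite strand.

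Beyond 1 Mb, 9 of 41 members passed the filter, with a median difference of -0.01. DCTD, the dCMP deaminase of thymidylate synthesis, differed by 0.03 ± 0.05, WWC2, a WW and C2 domain protein of the Hippo pathway, by -0.01 ± 0.05, and CDKN2AIP, which binds the tumour suppressor ARF, by 0.02 ± 0.06. FAT1, an atypical cadherin, had the highest deposited values of the neighbourhood, 8.38 to 8.60 over the 8 libraries, and differed by -0.02 ± 0.04. The lincRNAs RP11-11N5.1 and RP11-11N5.3, 2416 and 2418 kb away, differed by -0.14 ± 0.19 and 0.22 ± 0.30. KLKB1, plasma prekallikrein, had 53 reads in all and differed by -0.48 ± 0.52.

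F11-AS1, an RNA antisense to the coagulation factor gene F11, had 13 and 10 reads with sg1-IRF2, 17 and 16 with sg2-IRF2, 3 and 11 with sgAAVS1, and 17 and 12 in untransduced cells. The low value was that of sgAAVS1 library 1, and the guide libraries overlapped the untransduced ones. Both guides differed from sgAAVS1 by 1.18 ± 0.39 (limma, adjusted p = 0.166) and from untransduced cells by -0.02 ± 0.39. Without sgAAVS1 library 2 the difference was 1.93 and passed (adjusted p = 0.0072), and without library 1 it was 0.44 (adjusted p = 0.689).

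**Figure D3:**
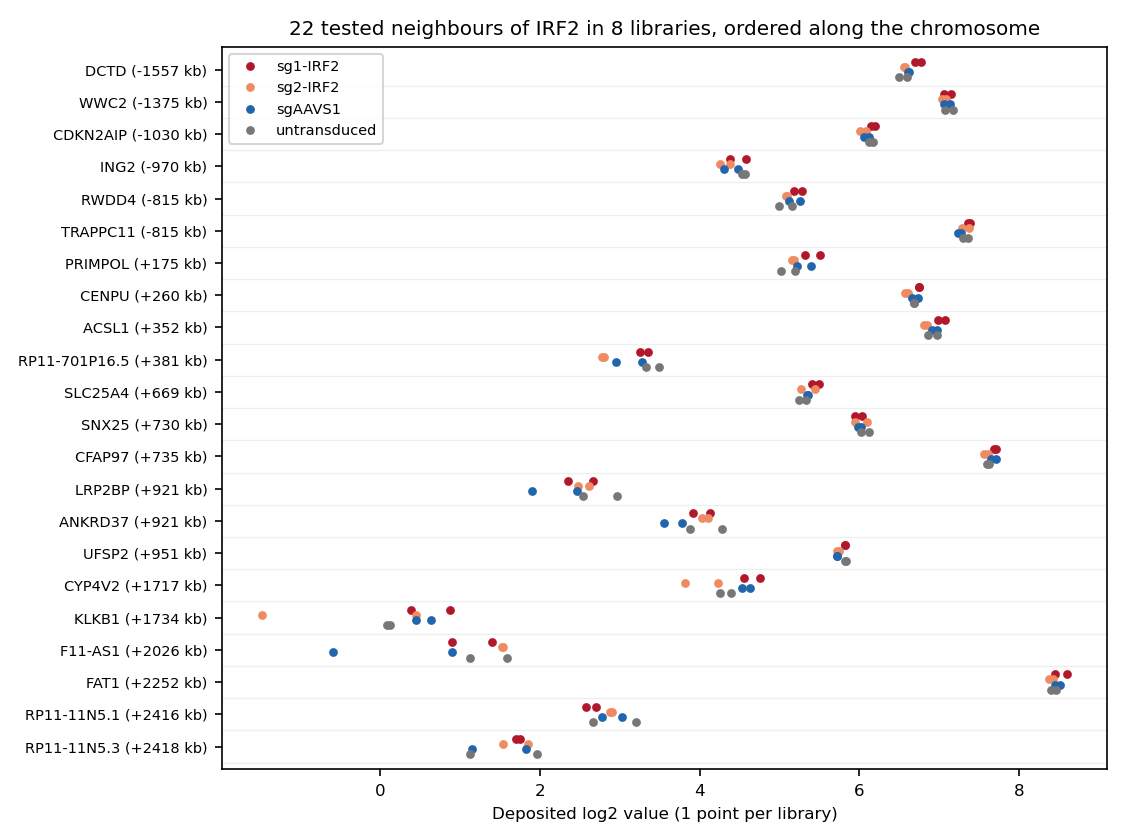
Deposited log2 values (horizontal axis) of 22 tested members in each of the 8 libraries, 1 point per library coloured by group, from the lowest to the highest coordinate down the page with the distance from IRF2 in kb. Points of the 4 groups lie close together in most rows, and KLKB1, F11-AS1, LRP2BP, CYP4V2 and RP11-11N5.3 have the widest ranges.

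Distance and difference were related weakly over the 23 tested members, with a Spearman rho of 0.11 between distance and the difference of both guides from sgAAVS1. Within 1 Mb rho was 0.63 over 14 members, which share libraries and differ in depth. With untransduced cells in place of sgAAVS1 it was -0.49 over the same 14, and for sgAAVS1 against untransduced cells, where no IRF2 guide enters, it was -0.64. Guide by guide within 1 Mb, rho against sgAAVS1 was 0.27 for sg1-IRF2 and 0.70 for sg2-IRF2. Against untransduced cells it was -0.51 for sg1-IRF2 and -0.34 for sg2-IRF2. These comparisons share libraries, so their values stand side by side only.

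Guide by guide, sg1-IRF2 against sgAAVS1 called none of the 23 tested members, where 0.825% of all genes were called. At an unadjusted p under 0.05 there were 3 members (13%), beside 7.71% of all genes. The voom fit called 1 member there, RP11-326I11.3, beside 0.653% of all genes. With sg2-IRF2 against sgAAVS1 1 tested member was called, CYP4V2, beside 8.16% of all genes. The voom fit called RP11-326I11.3 and CYP4V2 there, both lower, beside 7.55%.

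CYP4V2, a fatty acid hydroxylase altered in Bietti crystalline dystrophy, lies 1717 kb from IRF2. Its log2 values were 4.55 and 4.76 with sg1-IRF2, 4.23 and 3.81 with sg2-IRF2, 4.53 and 4.63 with sgAAVS1, and 4.25 and 4.40 in untransduced cells. The sg2-IRF2 libraries were the lowest, and sg1-IRF2 overlapped sgAAVS1. It fell with sg2-IRF2 by 0.56 ± 0.13 on the log2 scale against sgAAVS1 (limma, adjusted p = 0.0091), while its difference from untransduced cells was -0.31 ± 0.13 (adjusted p = 0.371) and did not pass. Without sg2-IRF2 library 2 the call was lost (-0.35, adjusted p = 0.258). Its exons overlap those of KLKB1 on the same strand, and part of its reads could be split between them.

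Between the guides, sg1-IRF2 against sg2-IRF2 called CYP4V2 and ACSL1 higher and no tested member lower, beside 13.3% of all genes, of which the median difference was 0.11. The voom fit called the same pair, beside 11.9% of all genes. CYP4V2 was higher by 0.63 ± 0.13 (limma, adjusted p = 0.0037), a call lost without sg1-IRF2 library 2 (0.53, adjusted p = 0.105) or sg2-IRF2 library 2 (0.43, adjusted p = 0.135). ACSL1 was higher by 0.20 ± 0.06 (adjusted p = 0.027), and with library medians aligned it was 0.08 (adjusted p = 0.503). The ACSL1 call was also lost without sg1-IRF2 library 2 (adjusted p = 0.278) and without sg2-IRF2 library 1 (0.202) or 2 (0.135).

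**Figure D4:**
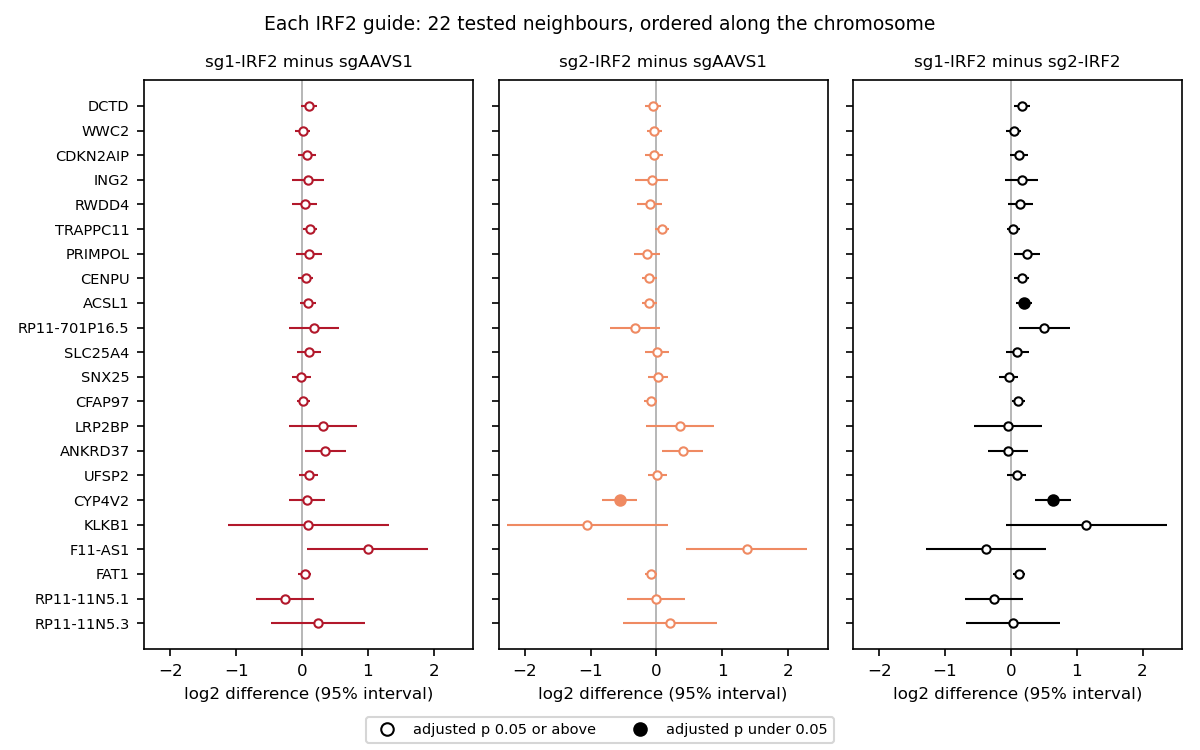
Log2 differences (horizontal axes) of 22 tested members in 3 comparisons, sg1-IRF2 minus sgAAVS1, sg2-IRF2 minus sgAAVS1 and sg1-IRF2 minus sg2-IRF2, ordered along the chromosome, with 95% intervals as bars and filled points for adjusted p under 0.05. Filled points are CYP4V2 with sg2-IRF2 (-0.56) and CYP4V2 (0.63) and ACSL1 (0.20) between the guides.

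Against untransduced cells, both guides together called none of the 23 tested members, where 2.50% of all genes were called. At an unadjusted p under 0.05 there were 2 members (8.7%), beside 14% of all genes. The voom fit called RP11-326I11.3 there, beside 2.54%. For sg2-IRF2 no tested member was called either, where 1.32% of all genes were called. The voom fit again called RP11-326I11.3, with the same share of genes. With sg2-IRF2, 2 tested members (8.7%) had an unadjusted p under 0.05, beside 10.8% of all genes. With sg1-IRF2, 2 tested members were called, both higher, where 9.18% of all genes were called and their median was 0.07.

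Those 2 were DCTD, at 6.77 and 6.69 with sg1-IRF2 and 6.49 and 6.59 in untransduced cells, and PRIMPOL. DCTD was higher by 0.19 ± 0.06 and PRIMPOL by 0.30 ± 0.09 (limma, adjusted p = 0.043 each). With library medians aligned neither passed (adjusted p = 0.196 and 0.114), and neither call survived leaving out either sg1-IRF2, sg2-IRF2 or untransduced library. The lowest and highest adjusted p among these fits were 0.059 and 0.33 for DCTD and 0.0506 and 0.38 for PRIMPOL. The voom fit called DCTD, PRIMPOL and, lower, RP11-326I11.3, beside 8.60% of all genes. For sgAAVS1 against untransduced cells no tested member was called, where 4.75% of all genes were called. Unadjusted p was under 0.05 in 4 tested members (17.4%) and in 19% of all genes. The voom fit called no member there either, beside 4.42% of all genes.

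Much of the interval gave no signal in K562 cells. In all, 33 members had no read in any library, 8 had 1 to 8 reads and 12 had 11 to 65 but stayed below the filter. Genes without a read included TLR3, the endosomal sensor of double-stranded RNA, F11, the neuronal adhesion gene TENM3 and HELT, a basic helix-loop-helix repressor. The melatonin receptor gene MTNR1A had 3 reads and PDLIM3, a muscle Z-disc protein, 1. ZFP42 (REX1), a pluripotency marker 3521 kb away, had 37, and its voom difference for both guides against sgAAVS1 was 1.28 ± 0.66 (adjusted p = 0.516). For members without reads, a further fall could not have been measured.

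Promoter windows of RefSeq (GRCh38.p14, 250 bases before to 50 after a start) were searched for the letters GAAANNGAAA on either strand, a form of the interferon-stimulated response element that IRF proteins bind. The element was found in 1255 of 35116 windows, or 3.57%. Members had 63 windows, of which 5 (7.94%) held it, in 5 of the 41 members with a window. CFAP97 and SNX25 share 1 site between their opposed RefSeq starts, CYP4V2 and FLJ38576 share another, and TLR3 holds the last. Windows of CFAP97, CYP4V2 and TLR3 are shown because they hold the 3 sites. By limma on the deposited log2 values CFAP97 was not called, while TLR3 had no reads. CYP4V2 was called lower with sg2-IRF2 against sgAAVS1 but not against untransduced cells. FLJ38576, at the same site, differed by -0.42 ± 0.62 with sg2-IRF2 against sgAAVS1 (limma voom, adjusted p = 0.745). Capitals mark the match, which on the strand shown reads TTTCNNTTTC, the reverse complement, at chr4:185203951-185204250 (minus strand), chr4:186191317-186191616 (plus strand) and chr4:186068906-186069205 (plus strand).
CFAP97: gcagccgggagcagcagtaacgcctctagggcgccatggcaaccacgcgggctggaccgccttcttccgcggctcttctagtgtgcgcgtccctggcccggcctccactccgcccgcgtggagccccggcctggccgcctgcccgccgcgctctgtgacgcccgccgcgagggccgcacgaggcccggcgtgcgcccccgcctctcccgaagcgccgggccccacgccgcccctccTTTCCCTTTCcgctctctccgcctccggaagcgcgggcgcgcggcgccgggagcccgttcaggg
CYP4V2: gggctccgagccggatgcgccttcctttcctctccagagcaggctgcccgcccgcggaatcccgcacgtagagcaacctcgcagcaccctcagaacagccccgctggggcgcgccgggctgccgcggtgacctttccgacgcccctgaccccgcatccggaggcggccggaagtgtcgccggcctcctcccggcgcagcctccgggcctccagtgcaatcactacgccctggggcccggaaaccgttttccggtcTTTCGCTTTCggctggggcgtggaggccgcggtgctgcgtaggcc
TLR3: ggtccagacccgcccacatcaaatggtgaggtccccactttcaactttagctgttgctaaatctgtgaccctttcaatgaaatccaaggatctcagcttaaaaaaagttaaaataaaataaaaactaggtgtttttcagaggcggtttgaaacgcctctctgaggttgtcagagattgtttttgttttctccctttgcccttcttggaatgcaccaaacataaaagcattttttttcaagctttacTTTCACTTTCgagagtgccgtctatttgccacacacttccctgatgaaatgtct

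Of the 3 tested members with the element, CFAP97 had 7.68 and 7.71 with sg1-IRF2, 7.56 and 7.61 with sg2-IRF2, 7.64 and 7.71 with sgAAVS1, and 7.60 and 7.62 in untransduced cells. SNX25 had 5.94 and 6.03 with sg1-IRF2, 6.09 and 5.95 with sg2-IRF2, 5.98 and 6.02 with sgAAVS1, and 6.02 and 6.12 in untransduced cells. Neither was called in any of the 8 comparisons by limma on the deposited log2 values. In alternative limma fits CFAP97 was called higher with sg1-IRF2 than with sg2-IRF2. This was so with array weights (adjusted p = 0.038), with only the groups compared (0.026) and without either sgAAVS1 library (0.038 each). For SNX25 the libraries of both guides overlapped those of sgAAVS1, while for CFAP97 those of sg2-IRF2 lay below both sgAAVS1 and both sg1-IRF2 libraries. Against sgAAVS1, CYP4V2 was the member called lower with sg2-IRF2 and not called with sg1-IRF2, with the difference between the guides given above. A match of letters is a description and not a measured binding site.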

How the data were processed

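RNA of 8 libraries was measured, 2 per group. Per the labels' protocols, RNA was column-purified, treated with DNase, depleted of ribosomal RNA and made into directional libraries. Per the submitters' processing notes, Cutadapt, Bowtie2 and hg38 were used. Not given in the sources used here were versions, the counting tool, its strand setting and its annotation. The authors' deposited values are log2 values per gene and library, 1 column per library. Unlogged, they were whole multiples of the value of 1 read (100% of values above each library's minimum, tolerance 0.01 read), and genes without reads were listed at 0.9 read. Whole reads were recovered from them for depth, ratios and the voom fit.

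Members and lists were chosen with earlier results of these data known. The tested members were named, except 1 that is not reported here on its own and is left out of the plots, with every member within 500 kb and a fixed list of known genes. Genes with a mean log2 value of at least 0 (14665) were fitted in limma 3.58.1 (R 4.3.3) with 4 group means over all 8 libraries and a mean-variance trend. Two-sided p-values went through Benjamini-Hochberg adjustment over all genes tested, and adjusted p under 0.05 was called. The fit had 4 residual and 22.4 prior degrees of freedom. Errors are standard errors. Nothing in the labels says that replicates are separate cultures, so p-values measure the spread between libraries, which may be technical. The limma voom fit of genes with at least 10 reads was chosen after seeing the data. Ratios are of summed reads over summed library totals, with exact conditional binomial 95% intervals and a floor of 3 reads. Reads lack molecular identifiers and are not independent molecules, so intervals cover counting error only. The floor puts 3 reads in place of 0 in the guide group and leaves out the counting error of the control reads. The scripts were tested on simulated data. Python 3.11.15, pandas 2.3.3, scipy 1.17.1 and matplotlib 3.10.9 did the rest.

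Of the tested members, 8 have exons overlapping others on the opposite strand and 3 on the same strand, which was not corrected for.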

Additional observations from a re-analysis of the deposited data

Results flagged for a closer look

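The difference between the IRF2 guides themselves passed the test for IRF2 and for 2 of its tested neighbours. For IRF2 the log2 difference, sg1-IRF2 minus sg2-IRF2, was -1.77. CYP4V2 was higher with sg1-IRF2 by 0.63 and ACSL1 by 0.20, where the median of all genes in that comparison was 0.11 and 13.3% of them were called.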

How the results depend on the processing

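For both guides against sgAAVS1, 21 alternatives gave 480 values of the tested members. Of these, 430 kept their sign and stayed uncalled, 48 of 18 members changed sign and were uncalled in both fits, and 2 passed, F11-AS1 without sgAAVS1 library 2 and ANKRD37 (0.38, adjusted p = 0.0498) without the filter. IRF2 was called in every alternative run.

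Members called changed as follows. With no filter on low values there were 3 for both guides against sgAAVS1 (RP11-326I11.3, RP11-326I11.5 and ANKRD37), 1 for sg1-IRF2 (RP11-326I11.5), 4 for sg2-IRF2 (those 3 and CYP4V2), and, against untransduced cells, 1 for both guides and 1 for sg2-IRF2 (RP11-326I11.3 each). For sg1-IRF2 against untransduced cells the count stayed at 2, with RP11-326I11.3 (-2.70, adjusted p = 0.0495) and PRIMPOL called and DCTD lost. In that fit genes without reads carry a value set by the library. The voom fit of genes with 10 reads, in the same order, called 2, 1, 2, 1 and 1. For sg1-IRF2 against sg2-IRF2 a filter at 2 gave 4, medians aligned 1, quantile normalization 1, no trend 0, array weights 8 and a fit of only the groups compared 8. For sg2-IRF2 against sgAAVS1 no trend gave 0. For sg1-IRF2 against untransduced cells medians aligned, quantile normalization and no trend gave 0 each. For sg2-IRF2 against untransduced cells array weights and only the groups compared gave 1 each (RP11-701P16.5). These counts stand without the share of all genes called under the same setting, so they are not a result about the members. In the main fit that share was 13.3% between the guides. The cause of the changes in count was not tested.

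Leaving out each library in turn gave 0 to 1 calls for both guides against sgAAVS1 (1, F11-AS1, without sgAAVS1 library 2) and 0 to 3 for sg2-IRF2 against sgAAVS1 (0 without sg2-IRF2 library 2, and 3, ANKRD37, CYP4V2 and F11-AS1, without sgAAVS1 library 2). Between the guides it gave 0 to 8 (0 without either library 2 of a guide, 1 without sg2-IRF2 library 1, 8 without either sgAAVS1 library). For sg1-IRF2 against untransduced cells it gave 0 to 2, for sg2-IRF2 0 to 1 (1, RP11-701P16.5, without either sgAAVS1 library), and for sgAAVS1 0 to 2 (2, ANKRD37 and F11-AS1, without sgAAVS1 library 2). The counts with a library left out also stand without the share of all genes called in the same fit. Spearman rho with distance ranged from -0.21 to 0.26, and was 0.63 within 1 Mb.

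Whether replicate numbers pair the libraries is not given in the labels. Correlations of same-numbered deviations were 0.22 for sg1-IRF2 with sgAAVS1 and -0.08 to 0.02 for the other pairs, which does not settle it. With a replicate block, sg1-IRF2 against untransduced cells called 1 tested member (PRIMPOL) in place of 2, and the other counts were the same. In the voom fit the block ended the sg1-IRF2 call of RP11-326I11.3 against sgAAVS1 (adjusted p = 0.0857).

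No fall is measurable in the 33 members without a read, 4 of them within 500 kb of IRF2. The gap from 63.0 to 175 kb held no member with 10 reads.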

Other observations

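The filter on the mean level left out 2487 genes with at least 10 reads over the 8 libraries. The voom fit called 23 of them for both IRF2 guides against sgAAVS1, or 0.925%, all 23 lower and none higher. Over all genes of that fit 1.57% were called, 207 lower and 63 higher. RP11-326I11.3 and RP11-326I11.5 are among these 23. Both the filter on the mean level and the 10-read filter used the libraries compared here. The direction of these 23 calls is therefore not independent of how the genes were selected, and how much of it the selection set was not tested.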
